A study of Rattus norvegicus with 120 samples.

Results

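The fast muscle contractile genes are 10 genes of the sarcomere of fast skeletal muscle fibres: Acta1, Myh1, Myh2, Myh4, Mylpf, Myl1, Tnnt3, Tnni2, Tnnc2 and Actn3. They were chosen by name, and every probe set annotated to one of these symbols alone was used, which gave 15 probe sets of the 31099 on the array. Myh1 had 5 probe sets, Tnnt3 had 2 and each of the other genes had 1. All 15 probe sets passed the filter on low values, and where a gene had several the probe set of highest mean was used unless another is named. Mylpf is listed as Myl11 in the current RefSeq table. On the build GRCr8, Mylpf, Tnni2, Tnnt3 and Actn3 lie on chromosome 1, the 3 myosin heavy chains on chromosome 10, Tnnc2 on chromosome 3, Myl1 on chromosome 9 and Acta1 on chromosome 19.

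The levels were measured in the eyes of 120 male F2 rats from an intercross of the inbred strains SR/JrHsd and SHRSP, all of them 12 weeks old. RNA of both eyes of an animal was combined, extracted with TRIzol, cleaned on RNeasy columns and hybridised to 1 Affymetrix array. The labels put all animals in 1 group, with no treatment and no control, and genotypes were not used here, so the comparisons are between animals. Each title carries a code S (10 codes of 11 to 13 arrays) and a code L (22 codes of 2 to 11 arrays). Titles of S codes 1 to 5 also carry a date, which goes with the code, and those of S codes 6 to 10 carry none. The labels explain neither code, and they do not say how much of the muscle that moves the eye was kept with it.

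Markers of eye tissues were present at high signal. Cryaa, a lens crystallin, had a median log2 level of 14.13, Sag, the rod arrestin, 13.34 and Krt12, a corneal keratin, 13.18. In a bulk sample, fewer cells of a type and less RNA per cell cannot be told apart, and this holds for every muscle level given here. A difference of 1 on the log2 scale is a 2-fold difference, and levels of different probe sets are not comparable with each other.

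In a sarcomere, myosin motors of the thick filament pull on actin thin filaments, and calcium starts the pull by binding troponin on the thin filament. The fast fibres use their own isoforms of most of these proteins, encoded by separate genes from those of slow fibres. The muscles that move the eye are known for a wide range of fibre types, which mix adult fast, slow, developmental and extraocular myosins.

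The promoters of the members that followed the others most closely are shown because those genes moved together between animals, as given further on. The rule took the 4 members of highest correlation with the score of the other members, which were Mylpf, Tnnc2, Tnni2 and Tnnt3. The sequences are from RefSeq on the build GRCr8, in which 9 of the 10 genes had an entry (Myl1 had 2 start sites), and Tnnt3 is named only. Each is the 180 bases that end just before the annotated transcription start, written 5′ to 3′ on the strand of the gene, at chr1:191260109-191260288 (forward strand) for Mylpf, chr1:207024310-207024489 (forward strand) for Tnni2 and chr3:173935340-173935519 (reverse strand) for Tnnc2. Capitals mark matches to the motifs searched.
Mylpf: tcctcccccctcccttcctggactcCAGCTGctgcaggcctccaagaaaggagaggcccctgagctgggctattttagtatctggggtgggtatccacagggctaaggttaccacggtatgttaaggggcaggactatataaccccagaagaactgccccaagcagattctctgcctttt
Tnni2: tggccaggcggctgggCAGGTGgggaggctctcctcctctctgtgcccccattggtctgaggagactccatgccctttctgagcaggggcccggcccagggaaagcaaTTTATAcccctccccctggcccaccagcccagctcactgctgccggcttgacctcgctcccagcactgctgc
Tnnc2: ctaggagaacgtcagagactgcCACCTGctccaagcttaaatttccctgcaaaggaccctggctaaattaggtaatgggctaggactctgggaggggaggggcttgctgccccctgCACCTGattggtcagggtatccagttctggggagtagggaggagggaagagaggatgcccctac

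The motifs were searched on both strands of the 250 bases before each start, and no match overlapped that of another motif in the windows of the members. The E-box, bound by myogenic factors, was searched as CANNTG and was found in 7 of the 10 member windows and in 65.5% of all 33465 RefSeq windows. The TATA box, searched as TATAAA, was found in 6 of the member windows and in 12.9% of all windows. The MCAT element, searched as CATTCC, was found in 3 member windows (Myh1, Myh4 and Acta1) and in 12.1% of all. The MEF2 site, searched as CTANNNNTAG, was found in 1 member window, at the downstream start of Myl1, and in 3.41% of all. The CArG box, the element bound by serum response factor, was found in 2 member windows (Acta1 and Myh4) and in 1.5% of all. These matches are descriptions of letters.

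The 3 adult fast myosin heavy chain genes lie side by side on chromosome 10, in the order Myh2, Myh1 and Myh4, with the embryonic gene Myh3 before them and Myh8 and Myh13 after them. Their promoters are shown because the probe sets used for them varied in different ways between animals, and the promoters were chosen after those values were seen. For Myh1 this rests on the probe set of highest mean, from which the others of that gene differed, as given further on. The windows are at chr10:52355559-52355738 (forward strand) for Myh2, chr10:52384732-52384911 (forward strand) for Myh1 and chr10:52421968-52422147 (forward strand) for Myh4.
Myh2: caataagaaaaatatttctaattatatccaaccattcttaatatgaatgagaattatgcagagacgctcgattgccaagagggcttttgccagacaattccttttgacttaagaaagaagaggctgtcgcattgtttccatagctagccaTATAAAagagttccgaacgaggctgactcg
Myh1: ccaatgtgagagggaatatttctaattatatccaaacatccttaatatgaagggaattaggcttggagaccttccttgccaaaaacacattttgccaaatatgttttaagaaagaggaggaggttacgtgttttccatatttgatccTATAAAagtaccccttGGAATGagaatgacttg
Myh4: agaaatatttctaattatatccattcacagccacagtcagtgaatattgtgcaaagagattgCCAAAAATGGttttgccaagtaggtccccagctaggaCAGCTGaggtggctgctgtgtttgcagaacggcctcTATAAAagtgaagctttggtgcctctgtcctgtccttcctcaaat

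All 3 hold a stretch of 20 identical bases, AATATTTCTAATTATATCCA, which begins at position -170 from the start of Myh2, -166 from that of Myh1 and -177 from that of Myh4. The stretch was found in 5 of the 33465 windows (0.0149%), which belong to Myh1, Myh2, Myh4 and LOC102555216. It was not fixed in advance but taken as the longest stretch that these 3 windows share. The count therefore includes the windows it was taken from. In each of these genes a TATA box lies close to the start, and of the 3 windows that of Myh4 alone holds an E-box and a CArG box.

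Acta1 encodes the actin of skeletal muscle thin filaments. Its log2 level was 11.40 in the lowest animal, 12.09 at the median and 12.36 in the highest. After removal of S code means its SD over the 120 animals was 0.151, and the highest animal was 1.86-fold above the lowest. The lowest animal, animal 5, lay at -0.62 from the mean of its S code and the next lowest at -0.41.

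The myosin heavy chains are the motors, with Myh2 in the fast oxidative fibres known as IIA, Myh1 in IIX fibres and Myh4 in IIB fibres, the fastest. Myh2 ran from 9.50 through a median of 10.19 to 10.92. Myh4 ran from 9.50 through 10.28 to 10.88, and Myh1 from 9.34 through 10.02 to 10.48. Myh2 and Myh4 had larger SDs after removal of S code means, 0.210 and 0.239, than Myh1, 0.144.

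Mylpf encodes the regulatory light chain of fast myosin, and Myl1 the essential light chain. Mylpf was 11.30 in the lowest animal, 11.86 at the median and 12.19 in the highest. Myl1 was 11.59, 12.01 and 12.31 at the same points. Both had their highest value in animal 29, and Myl1 had the narrowest span of the 10 genes after removal of S code means, 1.61-fold with an SD of 0.136.

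Fast troponin has 3 subunits: Tnnc2 binds calcium, Tnni2 inhibits the pull of myosin at rest, and Tnnt3 anchors the complex to tropomyosin. Tnnc2 ran from 10.40 through 10.99 to 11.35, with an SD of 0.170. Tnni2 ran from 10.36 through 10.99 to 11.46, with an SD of 0.199. Tnnt3 ran from 10.26 through 10.95 to 11.47, with an SD of 0.190. The same animal was lowest for all 3 subunits. The other probe set of Tnnt3 lay close to the filter, with a mean of 4.56, and its correlation with the main Tnnt3 probe set was 0.248.

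Actn3 encodes the alpha-actinin of the Z discs of fast fibres, where thin filaments are anchored. It was 8.63 in the lowest animal, 9.55 at the median and 10.06 in the highest. It had the widest span of the 10 genes after removal of S code means, 2.51-fold, with an SD of 0.240.

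Animal 5 was the lowest of all 120 after removal of S code means for 8 of the 10 genes. Its Actn3 lay at -0.86 from the mean of its S code, its Tnnt3 at -0.67 and its Acta1 at -0.62. The exceptions were Myh2, lowest in animal 2, and Myh1, lowest in animal 63. In animal 5 the log2 level of Myh1 was 0.05 above the mean of its S code, and that of Myh2 was the 13th from the lowest. Animal 63, whose title says that its array was scanned again, was at -0.66 for Myh1, -0.46 for Tnni2 and -0.36 for Mylpf. Results that rest on these arrays are given with and without them, and both choices were made after the values were seen.

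**Figure D1:**
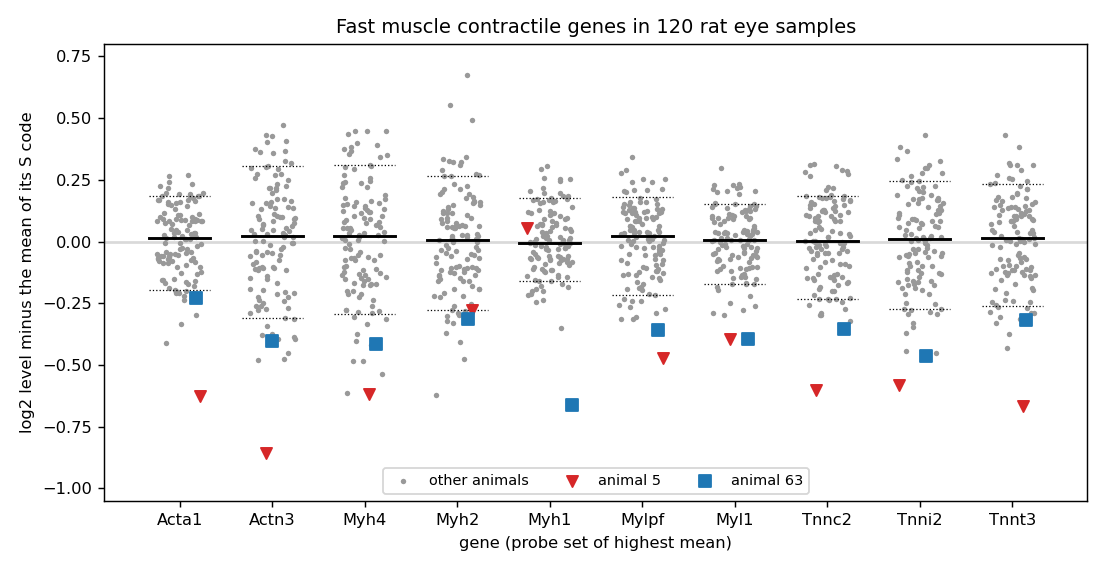
Log2 level of each gene minus the mean of its S code, for the probe set of highest mean; each point is 1 of 120 animals, thick lines are medians and dotted lines the 10th and 90th percentiles. Animal 5 (triangles) is the lowest point in 8 of the 10 genes but not in Myh1 or Myh2, and animal 63 (squares) is the lowest point for Myh1.

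The S codes took 9.23% (Tnni2) to 17.9% (Mylpf) of the variance of 9 of the genes, and 41.5% of that of Myh1. Means of S codes differed at most by 1.3-fold for Myh1, between S code 6 (9.87) and S code 10 (10.24), and by 1.11-fold for Myl1. In limma's moderated F test, with Benjamini-Hochberg adjustment over all 23326 probe sets tested, 5 of the 10 genes passed the threshold of 0.05, against 92.1% of all probe sets. They were Myh1 (adjusted p = 3.55e-09), Mylpf (adjusted p = 0.00856), Myh4 (adjusted p = 0.0125), Acta1 (adjusted p = 0.0282) and Myh2 (adjusted p = 0.0321). The call of Acta1 was lost when the median of each array was subtracted or when actin and GAPDH 3′ to 5′ differences entered as covariates, and without S code 7, 8 or 10. That of Myh2 was lost without S code 4, 6 or 9, and that of Mylpf without S code 4.

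The L codes were tested with the S code as covariate. In limma's test 0 of the 10 genes passed, against 4.58% of the probe sets, with adjusted p from 0.135 (Myl1) to 0.502 (Myh2). At an unadjusted p under 0.05 there were 2, Mylpf (p = 0.0183) and Myl1 (p = 0.0153), against 21.3% of the probe sets.

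The genes then were set against each other. Over the 120 animals, the 45 pairs of genes had a median Pearson r of 0.735 after removal of S code means. The p-values of pairs are from 100000 two-sided permutations of animals within S codes and are not adjusted, since the genes were chosen with earlier results known. Mylpf and Tnni2 had the highest correlation (r = 0.918, rho = 0.910, permutation p = 1e-05, the smallest these permutations can give), and r was 0.907 with the 2 most extreme animals of Mylpf left out and 0.881 to 0.964 within single S codes. Tnni2 and Tnnc2 reached 0.917, and Mylpf and Tnnc2 0.915. So a light chain and a pair of troponin subunits, from chromosomes 1 and 3, kept nearly the same order of animals.

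Without Myh1 and Myh2, the 28 pairs of the other 8 genes had r from 0.664 (Acta1 with Myh4) to 0.918, with a median of 0.81. Their r was positive within each of the 10 S codes, from 0.11 to 0.972. Without animal 5 the lowest of these r was 0.636, and without animal 63 it was 0.656. Thick filament, thin filament and Z disc genes were high and low in the same animals.

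Myh2 followed the others less closely in value. Its 8 pairs with genes other than Myh1 had r from 0.378 with Actn3 (rho = 0.396, permutation p = 2e-05 and 3e-05) to 0.666 with Tnni2. With Myh4, the other adult fast heavy chain measured by 1 probe set, r was 0.417 (rho = 0.452, permutation p = 1e-05 and 2e-05). Within single S codes the r of Myh2 ranged from -0.257 to 0.874.

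Myh1 stood apart. Its main probe set had r from -0.207 with Tnnt3 (rho = -0.264, permutation p = 0.029 and 0.0049) to 0.095 with Myh4 (rho = 0.047, permutation p = 0.31 and 0.61). Without animal 63 the r with Tnnt3 was -0.313. With Mylpf it had r = -0.085 and rho = -0.159 (permutation p = 0.38 and 0.093). Without animal 63, which was low for both genes, r with Mylpf was -0.207.

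**Figure D2:**
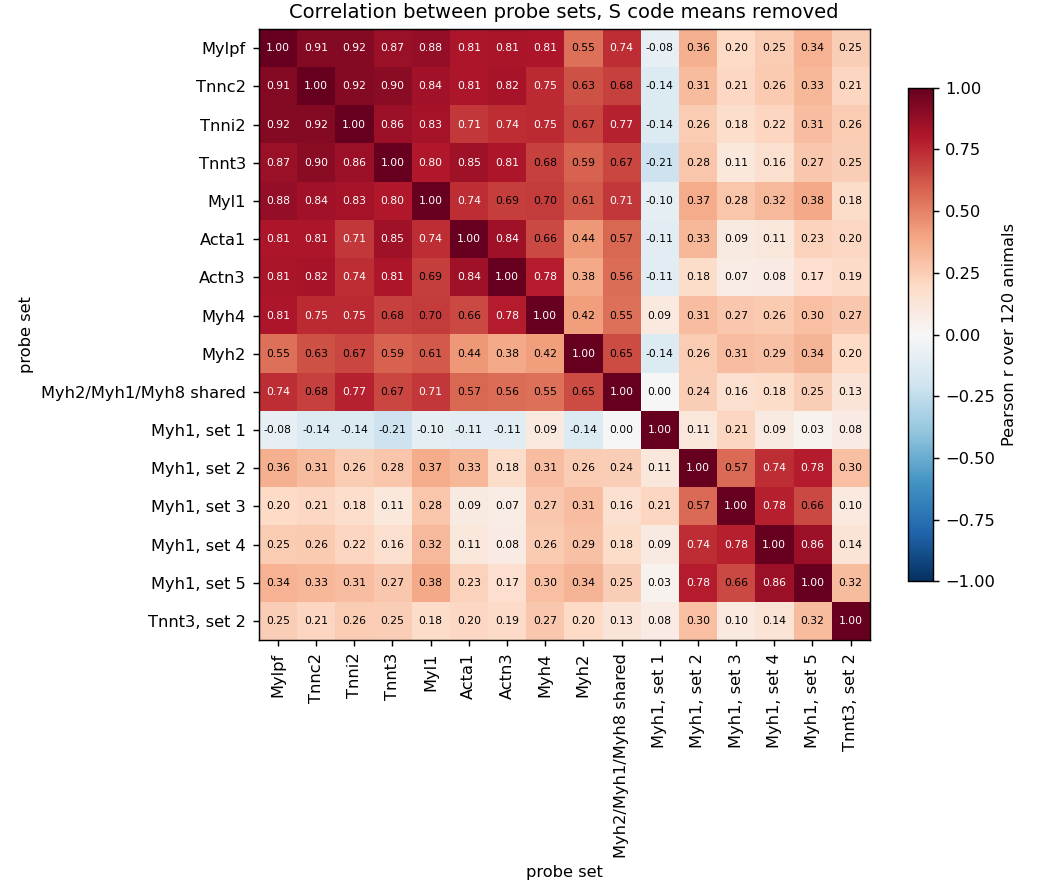
Pearson r between probe sets over 120 animals after removal of S code means, for the 15 probe sets of the members and the probe set shared by Myh2, Myh1 and Myh8; both axes list probe sets and the colour bar gives r. The 8 genes at the top left have r of 0.664 or more with each other, Myh2 is lower, and the first Myh1 probe set lies between -0.207 and 0.214 with all others.

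The 5 probe sets of Myh1 did not vary alike. The other 4 Myh1 probe sets had r from 0.567 to 0.858 with each other, but from 0.034 to 0.214 with the main one. Without animal 63, the lowest animal in all 5, those ranges were 0.461 to 0.83 and -0.206 to 0.014. With Mylpf, the 4 had r from 0.199 to 0.357. A probe set annotated to Myh2, Myh1 and Myh8 together, which is no member, had r = 0.739 with Mylpf, 0.651 with Myh2 and 0.552 with Myh4. Which transcripts each of these probe sets binds was not tested.

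The 3′ to 5′ difference of the actin control probe sets, a measure of RNA integrity on each array, also moved with some members. It is the 3′ level minus the 5′ level, so a higher value goes with less intact RNA. Its r over the 120 animals was 0.427 with Myh2 (rho = 0.407, permutation p = 1e-05 and 2e-05), 0.304 with Tnni2 (rho = 0.298, permutation p = 0.0021 and 0.002) and 0.274 with Myh4 (rho = 0.317, permutation p = 0.0043 and 0.00077). Without the 2 animals farthest from the median these r were 0.415, 0.25 and 0.28. Within S codes, r with Myh2 ran from -0.087 to 0.661, with Tnni2 from -0.236 to 0.597 and with Myh4 from -0.282 to 0.539. For the other 7 genes r lay between -0.167 (Acta1) and 0.183 (Tnnc2). Of these, Tnnc2 had rho = 0.219 (permutation p = 0.061 for r and 0.021 for rho). Myl1 had r = 0.158 and rho = 0.202 (permutation p = 0.1 and 0.033). The main Myh1 probe set had r = -0.057, and the other 4 Myh1 probe sets had r of 0.057, 0.242, 0.31 and 0.258, for which no p was computed. The part of RNA integrity in the correlations between genes was not tested beyond the fit with these differences as covariates, in which the median r of pairs was 0.74 and the same 8 genes passed the Mylpf test described next.

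With Mylpf as the reference, limma gave the slope of every probe set, the log2 change for each log2 unit of Mylpf, with the S code as covariate. Of the other 9 genes, 8 were higher with higher Mylpf at an adjusted p under 0.05, and 0 were lower. Over the array 18% of probe sets were higher and 5.72% lower, with a median slope of 0.081 (0.04 without animal 63), against a median of 0.99 over the 9 genes. At an unadjusted p under 0.05, 0 of the 9 genes were lower, against 10.6% of the probe sets. The background rested on single arrays: without animal 63 it was 5.41% higher and 1.17% lower, and without animal 5 it was 26.4% and 9.23%. The same 8 genes passed in both cases.

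Actn3 had a slope of 1.24 ± 0.085 (SE) and Myh4 one of 1.23 ± 0.085 (adjusted p = 1.1e-24 and 2.19e-24 in limma, against a slope of 0). The troponin genes followed with 1.16 ± 0.05 for Tnni2, 1.05 ± 0.059 for Tnnt3 and 0.99 ± 0.044 for Tnnc2. Acta1 (0.77 ± 0.056), Myl1 (0.76 ± 0.043) and Myh2 (0.74 ± 0.106) had slopes below 1. The slope of Myh1 was -0.08 ± 0.087 (adjusted p = 0.512). Differences between slopes were not tested. Of the other 4 Myh1 probe sets, 3 passed with slopes of 0.31, 0.24 and 0.31 (adjusted p = 0.00329, 0.0367 and 0.0047), and 1 had a slope of 0.19 (adjusted p = 0.102).

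**Figure D3:**
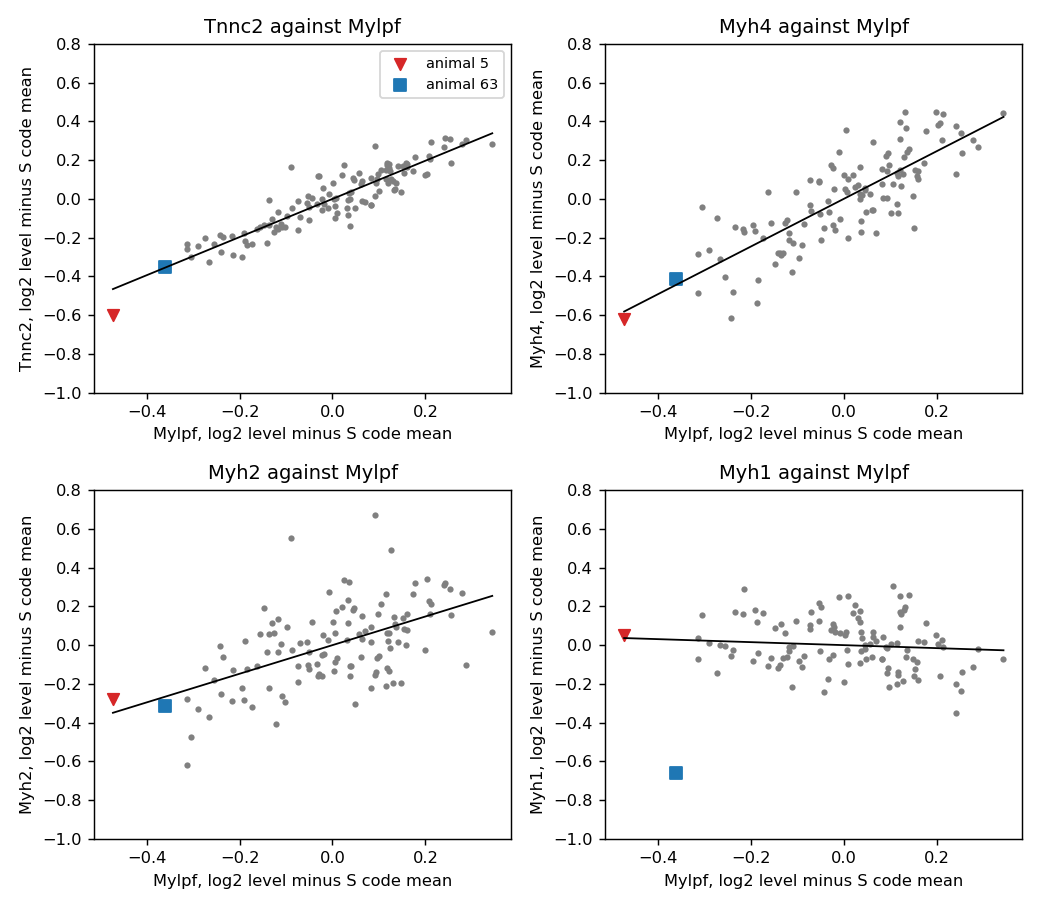
Log2 level minus S code mean of Tnnc2, Myh4, Myh2 and Myh1 (y axes) against that of Mylpf (x axes), 1 point per animal, with the fitted line. Tnnc2 lies close to its line (r = 0.915), Myh4 (0.811) and Myh2 (0.554) scatter more, and the slope of Myh1 is -0.08 (r = -0.085).

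Other genes of skeletal muscle were read against Mylpf from lists chosen by function. Of 78 such genes in 7 lists, 64 were higher with higher Mylpf and 0 lower (3 at an unadjusted p under 0.05, Mylk2, Clcn1 and Chrng, against 10.6% of all probe sets), with a median slope of 0.80. In the list of filament and Z disc genes 22 of 24 were higher. Among them were Mybpc2, the fast myosin-binding protein C (slope 1.26), Neb, the nebulin of the thin filament (1.22), and Ldb3 and Myot of the Z disc (both 1.20). The exceptions were Tpm2 (0.16, adjusted p = 0.155) and Mylk2 (-0.19, adjusted p = 0.0807).

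Slow fibre genes were higher with the fast gene Mylpf in 8 of 10 cases. Myh7, the slow myosin heavy chain, had a slope of 1.08, Tnnt1, slow troponin T, 0.99, Myoz2, a Z disc protein, 0.96, and Tnnc1, slow troponin C, 0.76. Of the extraocular, embryonic and cardiac isoform genes 3 of 6 were higher: Myh3, the embryonic heavy chain (1.04), Myh13, the extraocular one (0.93), and Myh8, the perinatal one (0.68). In both lists 0 genes were lower, also at an unadjusted p under 0.05 (10.6% of all probe sets), so the slow and extraocular isoforms that passed were higher in the animals with more fast light chain.

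Calcium and excitation genes were higher in 15 of 16 cases, led by Casq1, the calcium store of the sarcoplasmic reticulum (1.58), Trdn, the triadin of the release complex (1.55), Srl (1.33) and Hrc (1.23). Energy genes were higher in 12 of 13 cases, led by Eno3, muscle enolase (1.19), Ckmt2, mitochondrial creatine kinase (1.17), Pgam2, muscle phosphoglycerate mutase (1.16), and Slc2a4, the insulin-regulated glucose transporter (1.11). The acetylcholine receptor genes of the neuromuscular junction passed in 2 of 5 cases, Chrna1 (0.38) and Chrnb1 (0.30, adjusted p = 0.043), the latter with an adjusted p = 0.0696 without animal 63. Of the myogenic transcription factors 2 of 4 passed, Myf6 (1.14) and Mef2c (0.47), and without animal 63 so did Myog (slope 0.26, adjusted p = 0.0174).

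Markers of other tissues were read in the same fit. The counts below stand against 18% of all probe sets higher and 5.72% lower (5.41% and 1.17% without animal 63). Smooth muscle genes passed in 4 of 10 cases, Synpo2 (1.10), Des (0.90), Actg2 (0.40) and Smtn (0.24), of which Synpo2 and Des are also known in skeletal muscle. The defining smooth muscle genes Acta2 (slope -0.04, adjusted p = 0.781) and Myh11 (0.06, adjusted p = 0.556) did not pass. Adipocyte genes passed in 4 of 6 cases, Fabp4 (1.03), Cfd (0.61), Plin4 (0.53) and Lpl (0.34), but not Adipoq (0.31, adjusted p = 0.0879) or Plin1 (0.12, adjusted p = 0.229). Endothelial genes passed in 2 of 4 cases, Pecam1 (0.50) and Tek (0.36). Of fibroblast and tendon genes 3 of 10 passed, Col3a1 (0.53), Postn (0.33) and Col1a2 (0.24), the last of them lost without animal 63 (adjusted p = 0.0645). Smtn was also lost without animal 63 (adjusted p = 0.186), as was Pigr (slope 0.60), the 1 of 4 gland genes that passed (adjusted p = 0.0794). The part of these tissues in the muscle levels was not tested.

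In myelin genes 1 of 3 passed, Pmp22 (0.24). In limma's test 0 of 8 genes of corneal and conjunctival epithelium passed, 0 of 5 of retinal pigment epithelium, 0 of 8 of lens and 0 of 3 of red blood cells. At an unadjusted p under 0.05 these counts were 2 (Krt14 and Krt19, both higher), 0, 1 (Bfsp1, higher) and 1 (Slc4a1, lower). At that threshold 29.3% of all probe sets were higher and 10.6% lower. Of the rod genes 1 of 6 passed and was lower with higher Mylpf, Gnat1, the rod transducin (slope -0.22, adjusted p = 0.0131). Over the array 5.72% of the probe sets were lower. At an unadjusted p under 0.05 in limma, 3 rod genes were lower (Gnat1, Pde6a and Pde6b), against 10.6% of the probe sets. The slopes of all 6 rod genes were negative, from -0.55 to -0.06.

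**Figure D4:**
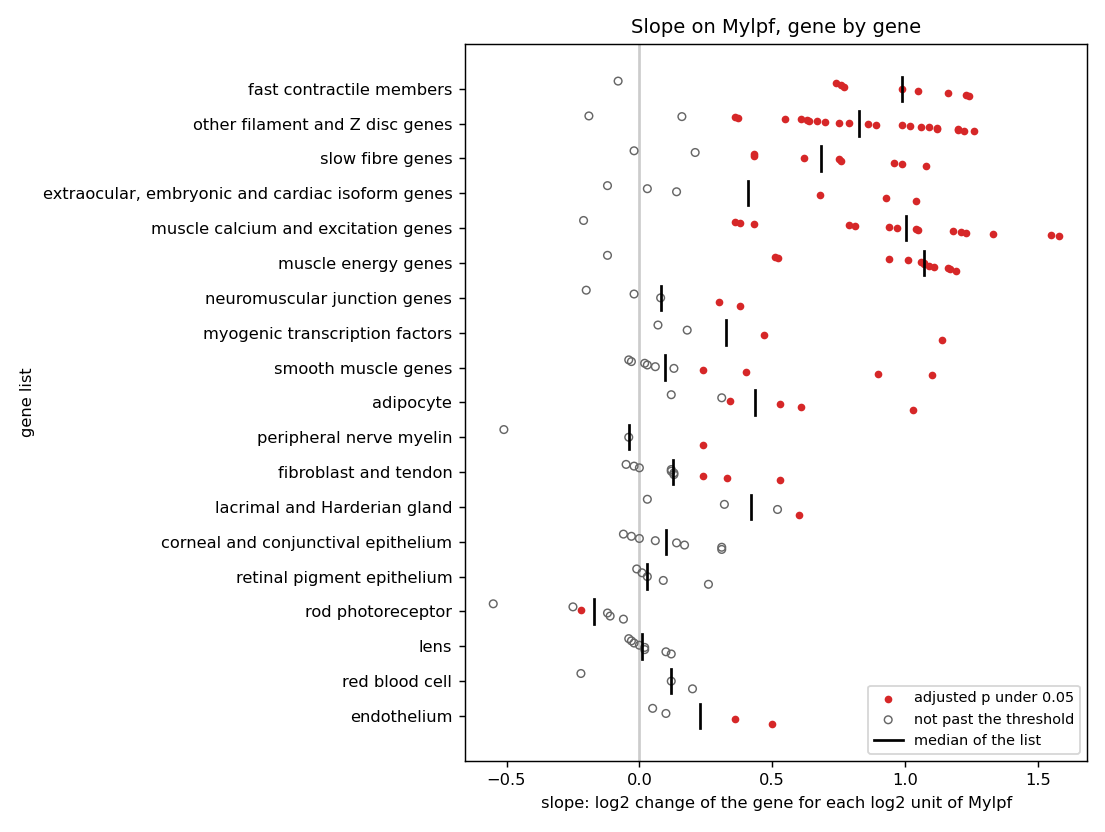
Slope of each gene on Mylpf (x axis, log2 change for each log2 unit of Mylpf) by gene list (y axis), with 1 point per gene, filled where the adjusted p was under 0.05, and a bar at the median of the list. The muscle filament, calcium and energy lists centre near 0.83 to 1.07, whereas lens, pigment epithelium, rod and myelin genes centre between -0.17 and 0.03; between them, the adipocyte (0.44) and gland (0.42) medians lie beside those of the extraocular isoform (0.41) and myogenic factor (0.33) lists, and the neuromuscular junction median is 0.08.

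Across the 12316 other genes, likeness to the members was described by the Pearson r with their score, the mean of the 10 genes after removal of S code means and division by the SD. It exceeded 0.8 in 27 genes and 0.5 in 171, and was under -0.5 in 0. Eno3 was first (r = 0.938), followed by Pvalb, the calcium buffer of fast fibres (0.886), Ttn, the titin spring (0.873), Mybpc1 (0.873) and Mybpc2 (0.871). Next were Tmod4, which caps thin filaments (0.868), Srl (0.860), Pgam2 (0.860), Casq1 (0.848), Pdlim3 (0.844) and Hrc (0.844). Scn4b, a sodium channel subunit (0.843), Hjv, the hemojuvelin of iron metabolism (0.837), Pygm, muscle glycogen phosphorylase (0.837), and Tpm1 (0.835) completed the first 15. Of these, Tmod4, Scn4b and Hjv were in none of the lists. The lowest r were those of Hfe (-0.463), Robo1 (-0.446), Mplkip (-0.433), Hcn4 (-0.416) and Chrnb4 (-0.414). Without animal 63 these ran from -0.408 to -0.326, and without animal 5 from -0.509 (Robo1) to -0.416 (Chrnb4). The count under -0.5 was then 0 and 1, and the count over 0.5 was 141 and 205.

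Since Myh2 and Myh4 were correlated less closely than most pairs, the difference between them within an array was used as a measure of their balance. This comparison was chosen after the correlations were seen. Myh2 minus Myh4 was -0.56 in the lowest animal, -0.12 at the median and 0.70 in the highest, with an SD of 0.244 after removal of S code means. As the probe sets differ, only its variation between animals can be read. The slopes on Mylpf were 0.74 for Myh2 and 1.23 for Myh4, so the difference does not take out the level that the members share. The fit had no covariate for that level, and its part in the slopes below was not tested.

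The slope on this balance passed at an adjusted p under 0.05 in limma for 19 probe sets other than those of Myh2 and Myh4, 4 higher (0.0171% of 23324) and 15 lower (0.0643%). Actn3 was the 1 member of the other 8 that passed, with a slope of -0.44 ± 0.083 (SE, adjusted p = 0.0035), so it was lower in animals with more Myh2 relative to Myh4. The slope puts in 1 value that Actn3 had an r of 0.784 with Myh4 and of 0.378 with Myh2. Both r had been seen before the balance was chosen. The adjusted p of Actn3, also in the alternative settings, is therefore a description and no independent test. The remaining 7 members had slopes from -0.20 (Mylpf, adjusted p = 0.214) to -0.09 (Myl1, adjusted p = 0.684). Acta1 had a slope of -0.17 (adjusted p = 0.364), and Tnni2 one of -0.13 (adjusted p = 0.679). At an unadjusted p under 0.05 in limma, Mylpf (p = 0.00068), Acta1 (p = 0.0035) and Myh1 (p = 0.0266) were lower as well. Over the array 4.11% of the probe sets were lower at that threshold. A lower level with this balance was therefore not particular to Actn3 among the members.

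Of the 15 lower probe sets 5 were those of genes in the muscle lists: Actn3, Pvalb (slope -0.39, adjusted p = 0.00276), Ckm, muscle creatine kinase (-0.37, adjusted p = 0.0294), and a pair for Pygm (both -0.42, adjusted p = 0.0294 and 0.0432). Another 4 were those of genes in none of the lists, Rnf6 (slope -1.27), Sc5d (-1.08 and -0.51) and Usp12 (-0.61), and 6 had no single symbol, with slopes from -1.48 to -0.20. The steepest slopes were those of a probe set with no symbol, Rnf6 and Sc5d. By list, 1 of 16 calcium genes, 1 of 13 energy genes, 0 of 24 filament and Z disc genes and 0 of 10 slow fibre genes passed. At an unadjusted p under 0.05 in limma, genes of the muscle lists outside the members were more often lower than higher (4.11% of all probe sets lower, 3.71% higher). Beside Pvalb and Ckm, Mybpc2 (-0.35, p = 0.000168), Atp2a1 (-0.28, p = 0.000445) and Myoz1 (-0.27, p = 0.000747) were lower. So were Neb, Myom2, Casq1, Cacng1, Trdn, Srl, Stac3, Ampd1, Eno3, Pfkm and the main Pygm probe set. The higher ones were Tpm2 (0.17, p = 0.0023), Clcn1 (0.14, p = 0.0413) and the slow fibre genes Csrp3 (0.21, p = 0.00917), Myl2 (0.21, p = 0.0215), Myoz2 (0.22, p = 0.0306) and Ankrd2 (0.16, p = 0.0497). The main Pygm probe set had a slope of -0.26 and did not pass (adjusted p = 0.26). The slow fibre genes with an unadjusted p under 0.05 thus were all higher, though their adjusted p did not pass. The slopes of the slow genes Myh7 (0.10, adjusted p = 0.874) and Tnnt1 (0.05, adjusted p = 0.939) were smaller and did not pass either. The 4 higher probe sets were those of Smim29, Wipi2, Pet100 and Vps13c, which are not muscle genes by any of the lists. Actn3 and Pvalb passed in all 19 alternative settings, with slopes from -0.48 to -0.32 and from -0.44 to -0.29. Ckm passed in 9 of the 19, and without animal 5 its adjusted p was 0.073. The settings reuse the same arrays, and the balance was chosen after the correlations were seen. For Pvalb and Ckm too they are therefore a description and no independent test.

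**Figure D5:**
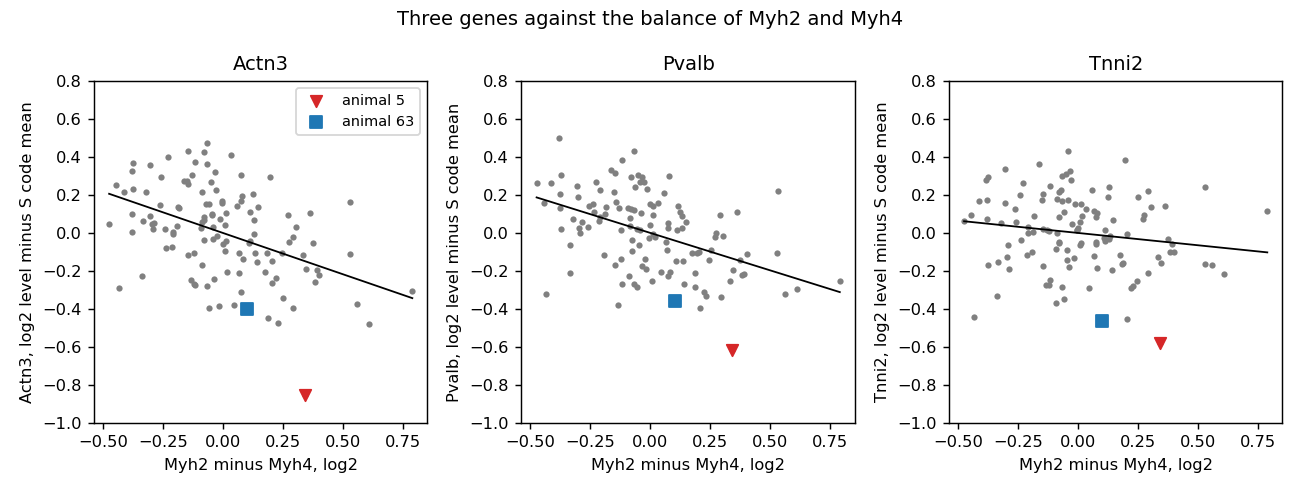
Log2 level minus S code mean of Actn3, Pvalb and Tnni2 (y axes) against Myh2 minus Myh4 with S code means removed (x axes, log2), 1 point per animal, with the fitted line. Actn3 and Pvalb are lower towards the right (slopes -0.44 and -0.39), whereas the slope of Tnni2 is -0.13 (adjusted p = 0.679).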

How the data were processed

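The authors deposited log2 values made by RMA, per the submitters' processing notes, with no version; the array annotation and genome build behind them are not given in the sources used here. RMA evens out array distributions and can mask a shift common to most genes; array medians here ran from 5.78 to 5.96. Of the probe sets, 20826 had 1 gene symbol, 436 several and 9780 none, through the platform annotation with names updated from RefSeq (GRCr8). Probe sets with a mean of at least 4.283, the 25th percentile of all values, were tested, 23326 in all. Tests were fitted over all of them with limma 3.58.1 in R 4.3.3, and permutations run with numpy 2.4.6; both were tested on simulated data.

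The labels do not speak of further samples of an animal, so p-values rest on the spread over animals, array error included, and the number of arrays limits how precise they are. The members and the gene lists were chosen with earlier results of these data known. Beyond the members, genes were named by rule: the 15 highest and 5 lowest in likeness to the member score, and up to 4 per list by slope. Defining markers, exceptions, genes whose call hung on 1 animal, and genes of the Myh2 minus Myh4 comparison were named after their values were seen. Alternatives changed the filter, scaling, covariates, arrays, probe set per gene, reference gene and S codes; those without animal 5 or 63, the pairs without Myh1 and the whole Myh2 minus Myh4 test were chosen after seeing the data.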

Additional observations from a re-analysis of the deposited data

How the results depend on the processing

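The 8 members past the Mylpf test stayed at 8 or 9 in all 22 alternatives, the 9th being Myh1 through its second probe set, and the count of other muscle genes ran from 59 to 66 (64 in the report). The median r of pairs ran from 0.635 to 0.791 (0.735 in the report). The SD of Myh1 ran from 0.123 to 0.188 (0.144 in the report), highest where S code means were kept, and the SDs of the other genes moved less. The S code count of 5 members ran from 3, without S code 4, to 6 when S codes were left out in turn, and the L code count of 0 ran from 0 to 1 (Myl1, without S code 4). The Myh2 minus Myh4 count of 19 was the least stable: it was 133 with no S code covariate, 29 with the actin and GAPDH differences as covariates, and 8 to 29 when S codes were left out in turn (8 without S code 1, 10 without 5, 9 without 8, 29 without 9, 10 without 10). The cause was not tested. No paired analysis was possible because all animals are in 1 group.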
